A study of Bubalus bubalis with 12 samples.

Results

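The four-and-a-half LIM protein genes were examined in the ruminal wall of 12 Italian Mediterranean dairy buffaloes. The members were taken by name from a table of 34037 genes. Of the 5 names sought, 4 had a row: LOC102395439 (gene ID 102395439), LOC102406359 (102406359), FHL2 (102412205) and FHL3 (102402453). No row carried the name FHL1, but the annotation used by the study describes the product of both LOC genes as a partial FHL1 protein. In the RefSeq annotation of another buffalo assembly, NDDB_SH_1, gene ID 102406359 has the symbol FHL1, lies on chromosome X, and has LOC102395439 as its direct neighbour. LOC102395439 was chosen by its measured FPKM, which were higher in the animals given green feed, and the other members because they belong to its family. Differences between the diets are therefore given for the members as a description, without a test.

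FHL proteins consist of an incomplete LIM domain followed by complete ones. A LIM domain is a double zinc finger that binds other proteins rather than DNA. The family works as adaptors between the actin cytoskeleton, integrin adhesions, kinases and transcription factors, and it is best known from muscle: FHL1 from skeletal and heart muscle, where its mutation causes myopathy, FHL2 from heart and as a coactivator of transcription, and FHL3 from skeletal muscle. The ruminal wall is lined by a stratified squamous epithelium that absorbs fermentation acids, and beneath it lie connective tissue, vessels and smooth muscle layers.

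The 6 control animals were fed a total mixed ration (TMR), and the 6 treated animals received TMR in which green ryegrass made up approximately 30% of the diet. All were adult lactating buffaloes from a single herd, slaughtered together, and each library came from the frozen wall of 1 animal. The treated ration also contained less corn silage, alfalfa hay and concentrate, more corn meal, and no soybean meal, calcium carbonate or vitamins. The ryegrass and these other changes of the ration cannot be told apart. Each wall piece contained several tissue layers, and in such bulk samples fewer cells of a type and less RNA per cell cannot be told apart.

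The study lists a quantitative PCR primer pair for LOC102395439, the gene it also names FHL1. The primers are shown because their label names this locus and not its X-linked neighbour.
LOC102395439 forward primer: acaagaaccgctactggcac
LOC102395439 reverse primer: tgctacaatgggcttgaggc
Each primer has 20 bases with 55.0% G or C. Whether they also pair with the transcript of LOC102406359 was not tested.

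Expression was given as FPKM, fragments scaled by transcript length in kilobases and by library depth, per 1000000 counted fragments, and the fragment counts behind the values were recovered for every gene. Libraries held between 10531541 and 12948372 counted fragments. Control replicate 6 and treated replicate 6 stood apart from the other animals. Their scores on the first component of the within-group variation, which held 31.5% of the variance, were 0.47 and 0.73 against -0.26 to 0.04 elsewhere, and ACTB, the cytoskeletal actin used as a reference gene, was at 370 and 289 FPKM in them against 596 to 806. KRT5, the keratin of basal squamous cells, averaged 1436 ± 495 FPKM (SD, n = 6) in controls and 1550 ± 672 in treated animals, so the squamous layer was present. Of 14 skeletal muscle markers, 11 had a row, none reached the read filter, and MYLPF, MYOT and XIRP2 had no read in any animal.

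LOC102395439 was expressed at a low level and was higher in the treated animals. In control replicates 1 to 6 it was at 0.606, 0.852, 0.947, 0.666, 0.414 and 0.522 FPKM. In treated replicates 1 to 6 it was at 2.12, 1.19, 0.986, 2.00, 1.78 and 1.26 FPKM. The highest control and the lowest treated animal, both replicate 3, were close to each other, but the groups did not overlap on this scale.

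The mean level of LOC102395439 was 0.668 ± 0.201 FPKM over the 6 controls and 1.56 ± 0.471 over the 6 treated animals (SD), a ratio of 2.33. The difference of the log2(FPKM + 0.01) means was 1.21 with a standard error of 0.27, against a median difference of 0.0052 over the 12620 genes that passed the read filter. Every treated animal lay above every control animal in 4 of these genes (0.0317%) and below every control animal in 3 (0.0238%), and LOC102395439 is a member of the former set by the same contrast that led to its choice. It passed the filter, at least 42 reads in at least 1 animal, only through the treated group: 0 of 6 control and 3 of 6 treated animals reached that count. These values therefore cannot be read as evidence independent of the choice.

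The depth behind the separation was small. LOC102395439 had 12 to 29 reads in the controls and 28 to 60 in the treated animals, so that 1 read was worth 0.0327 to 0.0402 FPKM. As unscaled reads the groups overlapped, control replicate 3 with 29 reads and treated replicate 3 with 28, and 5 of 6 treated animals lay above all controls. The 95% counting intervals (exact Poisson) of these animals, 0.634 to 1.36 FPKM and 0.655 to 1.42 FPKM, covered nearly the same range. Under median-ratio scaling the groups stayed apart by a similar margin, 0.949 against 0.981.

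**Figure D1:**
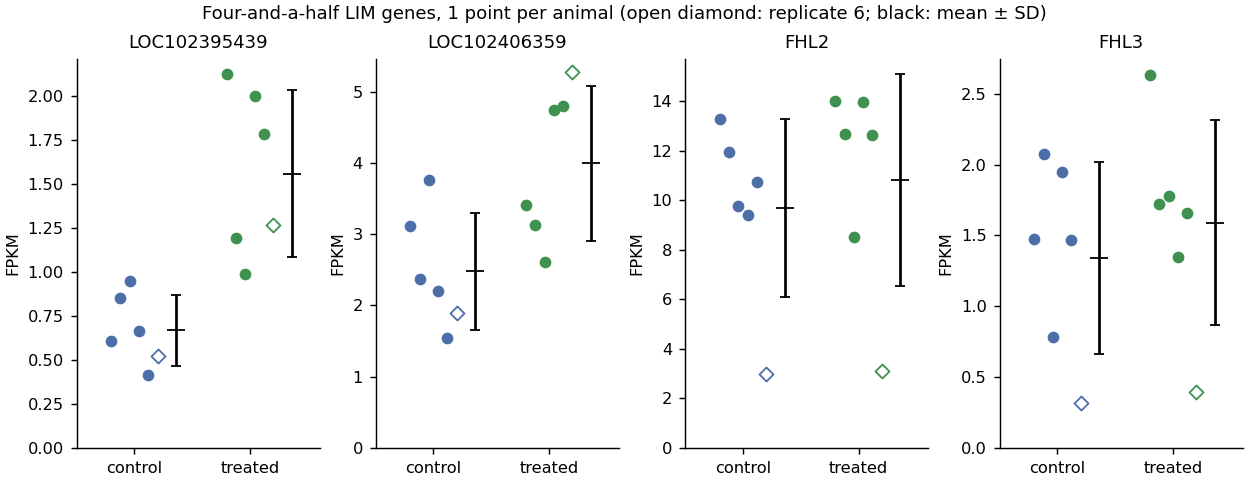
FPKM of LOC102395439, LOC102406359, FHL2 and FHL3 (vertical axes, linear, from 0) in control and treated animals, 1 point per animal, with the group mean ± SD in black and replicate 6 of each group as an open diamond. For LOC102395439 all 6 treated animals lie above 0.947, the highest control value, whereas for FHL2 and FHL3 the groups overlap and their lowest animals are the 2 labelled replicate 6.

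LOC102406359, whose gene ID carries the symbol FHL1 in RefSeq, was also higher in the treated animals, with overlap. It was at 3.12, 2.37, 3.75, 2.20, 1.54 and 1.90 FPKM in control replicates 1 to 6. In treated replicates 1 to 6 it was at 3.40, 3.13, 2.60, 4.75, 4.80 and 5.27 FPKM. Treated replicates 4 to 6 exceeded all controls, and all 6 exceeded the control median of 2.28.

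The group means of LOC102406359 were 2.48 ± 0.819 and 3.99 ± 1.08 FPKM (SD, n = 6 each), a ratio of 1.61, and the log2 difference was 0.70 with a standard error of 0.25. All 12 animals had at least 50 reads on it, so its filter did not depend on the diet. Replicate 6 was the highest treated animal for this gene, unlike for FHL2 and FHL3. Without control replicate 6 and treated replicate 6 the log2 difference was 0.55, and that of LOC102395439 was 1.20.

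Taken as a single locus, the neighbouring X-linked genes received 8.16 ± 2.55 reads per 1000000 counted fragments in controls (range 5.06 to 12.2) and 14.3 ± 3.44 in treated animals (range 9.24 to 17.3), with 4 of 6 treated animals above all controls. The share of these reads that lay on LOC102395439 was 19.6% ± 3.15 in controls (14.8% to 24.2%) and 26.0% ± 5.81 in treated animals (17.6% to 35.7%). Treated replicate 6 had the lowest treated share and treated replicate 1 the highest, and 5 of 6 treated animals lay above the highest control. Both genes thus had the higher mean in the treated animals, LOC102395439 by the larger ratio. The counting step used by the authors discarded reads of low mapping quality, so any reads that both loci share were not analysed here.

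**Figure D2:**
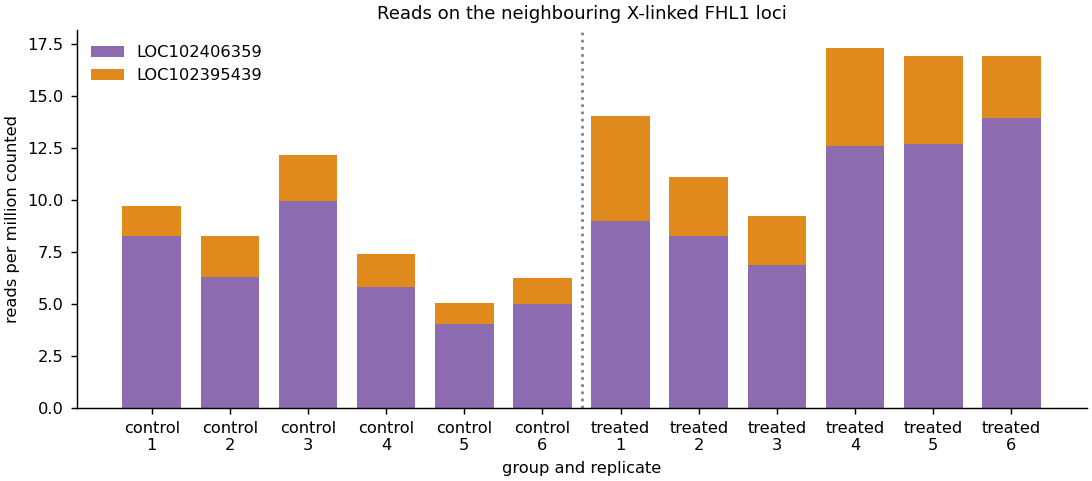
Reads per 1000000 counted fragments (vertical axis, from 0) on LOC102406359 and LOC102395439, stacked for each of the 12 animals, with a dotted line between the groups. The stacked height runs from 5.06 to 12.2 in controls and from 9.24 to 17.3 in treated animals, and the LOC102395439 part is 14.8% to 24.2% and 17.6% to 35.7% of it.

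FHL2, an adaptor of integrins and β-catenin, was the most abundant member and differed little between the diets. It was at 13.3, 11.9, 9.76, 9.40, 10.7 and 2.98 FPKM in control replicates 1 to 6. In treated replicates 1 to 6 it was at 14.0, 12.7, 8.53, 14.0, 12.6 and 3.09 FPKM. Replicate 6 was far below the other animals in each group, and the groups overlapped over nearly their whole range.

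The FHL2 means were 9.69 ± 3.59 and 10.8 ± 4.28 FPKM (SD, n = 6 each), a ratio of 1.12 and a log2 difference of 0.14 with a standard error of 0.41. This difference turned to -0.17 without control replicate 6 and became 0.47 without treated replicate 6. FHL3, the member best known from skeletal muscle, was at a lower level. It ranged from 0.320 to 2.07 FPKM with a median of 1.47 in controls and from 0.397 to 2.63 FPKM with a median of 1.69 in treated animals, the lowest value in each group being that of replicate 6, with 6 and 9 reads.

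The FHL3 means were 1.34 ± 0.677 and 1.59 ± 0.723 FPKM (SD, n = 6 each), and the log2 difference was 0.28 with a standard error of 0.50. Only 1 treated animal lay above all controls. Without control replicate 6 the difference was -0.078 and without treated replicate 6 it was 0.64. Without both of these animals it was 0.28, and that of FHL2 was 0.15. For FHL2 and FHL3, leaving out control replicate 6 alone reversed the sign, and leaving out any other animal alone did not. The differences of both genes over all animals were smaller than their standard errors. FHL5, the remaining family member, had 0 to 15 reads per animal and did not pass the filter.

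The members differed in their level per unit length. Averaged over all 12 animals, FHL2 was at 10.3 FPKM, LOC102406359 at 3.23, FHL3 at 1.47 and LOC102395439 at 1.11, and 57.3%, 28.2%, 14.2% and 10.6% of the genes tested had a lower mean. FHL2 exceeded LOC102406359 in 11 of 12 animals, by 1.61 ± 0.93 (SD) on the log2 scale (two-sided exact sign-flip permutation test, p = 0.00146). LOC102406359 exceeded FHL3 in 12 of 12 animals, by 1.26 ± 1.13 (exact p = 0.000488). FHL3 and LOC102395439 are given without a test, since LOC102395439 was chosen by its treated values. FHL3 was higher by 0.82 in the control group (4 of 6 animals) and by -0.11 in the treated group (3 of 6 animals), 0.36 ± 1.04 over all 12, and by 0.66 without both replicate 6 animals, whose FHL3 was low.

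FHL2 thus supplied 66.6% ± 8.22 of the summed FPKM of the members in controls and 57.8% ± 13.5 in treated animals. LOC102406359 supplied 19.1% ± 8.29 and 24.6% ± 14.0, and LOC102395439 5.20% ± 2.27 and 8.88% ± 2.19 (SD, n = 6 each). In treated replicate 6 LOC102406359 made up 52.6% and FHL2 30.8%, the reverse of the order in every other animal. Any reads shared by the X-linked loci would be missing from these levels and shares, and their number was not tested.

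The members also varied between animals of a group. The variance of its depth-scaled reads within groups was 3.36 times the mean for LOC102395439, 9.13 times for LOC102406359, 7.19 times for FHL3 and 39.2 times for FHL2. Whether the members varied together was asked after removing the group means, which leaves out the diet contrast. Of 6 pairs of members, none passed Benjamini-Hochberg adjustment over the pairs.

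LOC102395439 and LOC102406359 had a Pearson r of 0.64 over the 12 animals (permutation p = 0.0362, adjusted 0.109) and a Spearman rho of 0.65 (permutation p = 0.0356, adjusted 0.159). The r was 0.79 in controls (exact p = 0.0597) and 0.48 in treated animals (exact p = 0.296). Without control replicate 5 and treated replicate 3, which lay farthest from the median, it was 0.35 (permutation p = 0.332), so the relation rested in part on animals in which both genes were low.

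FHL2 and FHL3 had an r of 0.89 (permutation p = 0.00963, adjusted 0.0578) and a rho of 0.59 (permutation p = 0.0529). Here the 2 farthest animals were control replicate 6 and treated replicate 6, both low for both genes, and without them r was 0.16 (permutation p = 0.666). The relation of FHL2 and FHL3 rested on these animals. The other 4 pairs had r between -0.27 and 0.40.

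**Figure D3:**
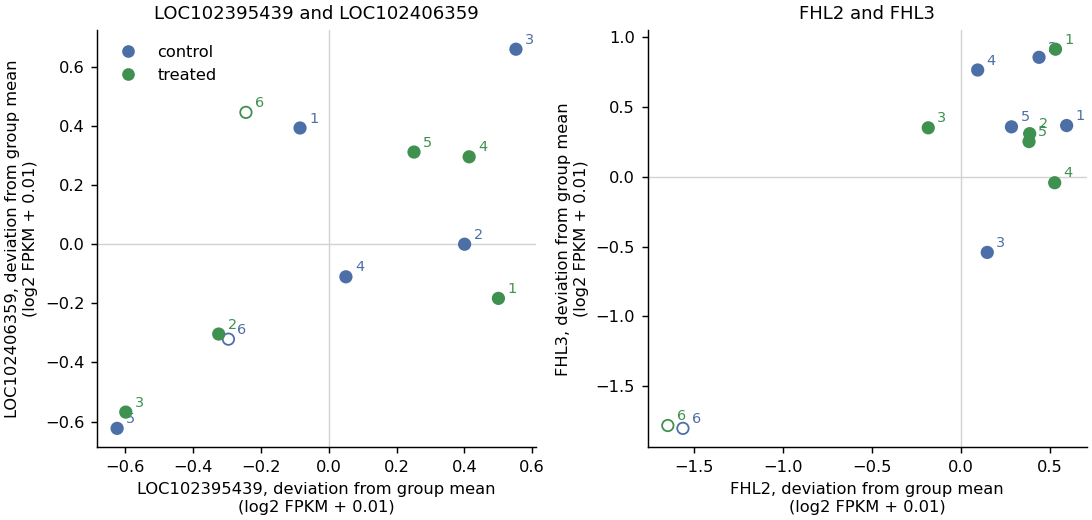
Deviation of each animal from its group mean on the log2(FPKM + 0.01) scale, LOC102395439 against LOC102406359 (left) and FHL2 against FHL3 (right), numbered by replicate, with replicate 6 open. On the left the points spread along the diagonal (r = 0.64), and on the right the replicate 6 animals sit alone at the lower left and the other 10 show no such line (r = 0.16).

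The members were next set against summary scores of marker genes for the layers of the wall, again within groups, in 20 comparisons. Squamous epithelium was scored by the mean of 9 mostly keratin, desmosome and envelope genes, and fibroblasts by 7 mostly collagen and matrix genes. FHL3 followed the squamous epithelium score (r = 0.93, permutation p adjusted over the comparisons = 0.0158). It ran against the fibroblast score (r = -0.75, adjusted permutation p = 0.0447). By Spearman rho the values were 0.78 (adjusted permutation p = 0.0859) and -0.83 (adjusted 0.0166). Without both replicate 6 animals r was 0.68 (adjusted permutation p = 0.161) and -0.83 (adjusted permutation p = 0.051), so neither relation passed adjustment without them. The relation to the fibroblast score was no weaker without them, with an unadjusted permutation p of 0.00255 against 0.00492 over all 12 animals.

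FHL2 also followed the squamous score (r = 0.88, adjusted permutation p = 0.0447), but r was 0.26 without both replicate 6 animals. LOC102406359 had its highest r, 0.65, with the endothelium score (permutation p = 0.0274, adjusted 0.137), and 0.56 and 0.48 with fibroblast and smooth muscle, none of which passed adjustment. LOC102395439 had no r above 0.44. No relation of an X-linked gene to a marker score passed adjustment. Those of FHL2 and FHL3 passed it only with the replicate 6 animals included, although that of FHL3 with the fibroblast score did not weaken without them.

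**Figure D4:**
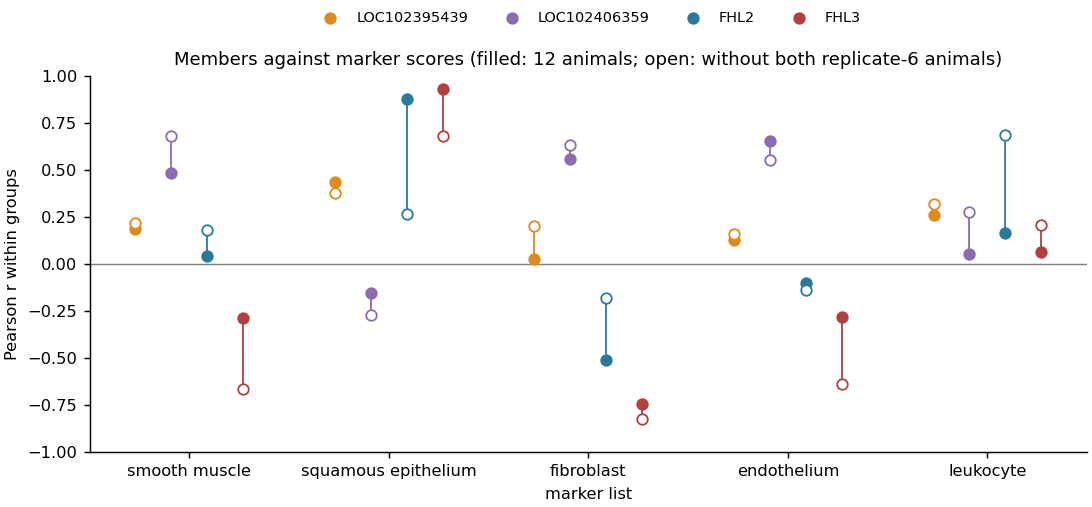
Pearson r within groups (vertical axis) of each member with the scores of 5 marker lists, filled points for all 12 animals and open points without both replicate 6 animals. FHL3 keeps its sign with squamous epithelium (0.93 and 0.68) and fibroblast (-0.75 and -0.83), whereas FHL2 with squamous epithelium drops from 0.88 to 0.26.

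The genes whose within-group pattern was most like that of each member were sought among 11493 genes with a mean of at least 1 FPKM, over 12 animals and without a test. Values picked as the highest of so many are high by selection, also when recomputed on part of the same animals. For LOC102395439 they were ELAC1, a transfer RNA processing nuclease (r = 0.858), the annexin ANXA3 (0.856), RPUSD4 (0.834), the ubiquitin ligase RNF168 (0.827) and angiotensinogen, AGT (0.822). For LOC102406359 they were LOC102404604 (0.911), PHACTR2, which binds actin and phosphatase 1 (0.868), the RNA exosome subunit EXOSC3 (0.853), RPUSD4 again (0.851) and the fatty acid receptor CD36 (0.850). RPUSD4, a mitochondrial pseudouridine synthase, was the 1 gene on both lists.

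For FHL2 the most alike genes were LOC102392521, RANGAP1, IGHMBP2, LMNA, which encodes the nuclear lamins A and C, and KNOP1, with r of 0.979 to 0.989. For FHL3 they were FXR2, CCDC106, HMCES, UNC45A, a myosin chaperone, and PLEKHG3, with r of 0.959 to 0.977. Without both replicate 6 animals these ranges were 0.776 to 0.845 and 0.784 to 0.873, whereas those of the X-linked genes were 0.855 to 0.927 and 0.864 to 0.930. The high values for FHL2 and FHL3 thus owed part of their size to the same pair of animals.

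Of the genes around the X-linked members, LOC102407213, on the side of LOC102406359, was at 8.97 ± 0.874 FPKM in controls and 7.79 ± 1.53 in treated animals (log2 difference -0.22) and did not reach a limma nominal p under 0.05. On the other side LOC112582605 and LOC112582604 had no read in any animal. Of 12 genes that neighbour FHL1 on the human X chromosome, 9 had a row and 5 were tested, with a median log2 difference of -0.06 and none at a nominal p under 0.05. Among them were RBMX (48.9 and 48.5 FPKM) and HTATSF1 (15.8 and 14.7 FPKM).

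Other genes of the cytoskeletal LIM class were split about evenly between higher and lower means. Over all genes tested, 99 (0.784%) were higher and 57 (0.452%) lower at a limma nominal p under 0.05, 156 (1.24%) in all, and none at an adjusted p under 0.05, the smallest being 0.9997. Of 35 cytoskeletal LIM genes 27 were tested: 13 were above and 14 below 0, the median was -0.02 and none reached a nominal p under 0.05. The most abundant were CRIP1 (55.7 ± 17.3 and 70.3 ± 20.9 FPKM), PDLIM1 (55.3 ± 10.02 and 65.5 ± 14.9) and ABLIM1 (38.3 and 38.8).

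The known binding partners and targets of FHL proteins were split in the same way. Of 28 genes 22 were tested, 10 above and 12 below 0, with a median of -0.0039 and none at a nominal p under 0.05. β-catenin, CTNNB1, was at 187 and 188 FPKM, the kinase MAP2K1 at 57.1 and 61.6, and integrin β1, ITGB1, at 59.3 and 53.1. The muscle partners MYBPC1 and MYOD1 had a mean of 0.0 FPKM in each group.

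Because FHL1 is a muscle protein, the smooth muscle markers are given beside the X-linked genes. Of 17 markers 14 were tested, 13 of them with a log2 difference below 0 and 1 above, and with a median of -0.58. ACTG2, CNN1 and LMOD1 did not reach the read filter, with control means of 0.851, 1.17 and 0.555 FPKM and treated means of 0.307, 0.399 and 0.345. Several smooth muscle markers were thus at a low level, and how much muscle the wall pieces held was not measured. DES, the muscle intermediate filament desmin, was at 3.22 ± 1.40 FPKM in controls and 1.66 ± 0.976 in treated animals (-1.04, SE 0.42, limma adjusted p = 0.9997) and was the only one with a nominal p under 0.05. That call held in 6 of the 12 fits that left out 1 animal and was lost without control replicate 2, 3 or 6 or treated replicate 1, 2 or 5, its log2 difference staying between -1.28 and -0.77. MYH11, smooth muscle myosin, was at 2.57 ± 1.27 and 1.45 ± 0.740 FPKM (-0.78, SE 0.42, limma adjusted p = 0.9997). The most abundant markers, FLNA, VCL and TPM1, had differences of -0.07, -0.21 and 0.02.

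The smooth muscle score ran from -0.22 to 0.69 in controls and from -0.88 to 0.52 in treated animals, and the fibroblast score from -0.87 to 1.47 and from -2.13 to 0.83. On the log2 scale LOC102395439 and LOC102406359 had the higher mean in treated animals, and 13 of the 14 muscle markers had the lower. Among the 13 was SMTN at -0.03 (SE 0.42), whose mean FPKM was 13.4 in controls and 13.5 in treated animals. With the smooth muscle score as a covariate, the log2 differences of LOC102395439 and LOC102406359 were 1.30 and 0.95 in place of 1.21 and 0.70. This fit is given as a description only. For FHL3 the same covariate turned the difference to -0.043. Of 7 fibroblast markers tested, all were below 0 (median -0.73), among them the matrix genes COL3A1 (36.2 ± 21.8 and 28.0 ± 24.3 FPKM), LUM (34.8 ± 31.7 and 19.0 ± 15.0) and DCN (24.3 ± 16.2 and 15.8 ± 11.6). Squamous epithelium had 6 of 9 above 0 (median 0.08), the most abundant being KRT5, the keratin KRT15 (782 ± 144 and 913 ± 194 FPKM) and the desmosomal cadherin DSG3 (700.2 ± 156 and 671 ± 132). Endothelium (1 of 6 above 0, median -0.10) and leukocytes (0 of 4 above 0, median -0.12) were led by PECAM1, VWF and KDR, with differences of -0.08, 0.07 and -0.26, and by LCP1, PTPRC and CD3E, with differences of -0.04, -0.13 and -0.26. In these 4 lists no gene reached a nominal p under 0.05, and the part of tissue composition in the members' differences was not tested.

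**Figure D5:**
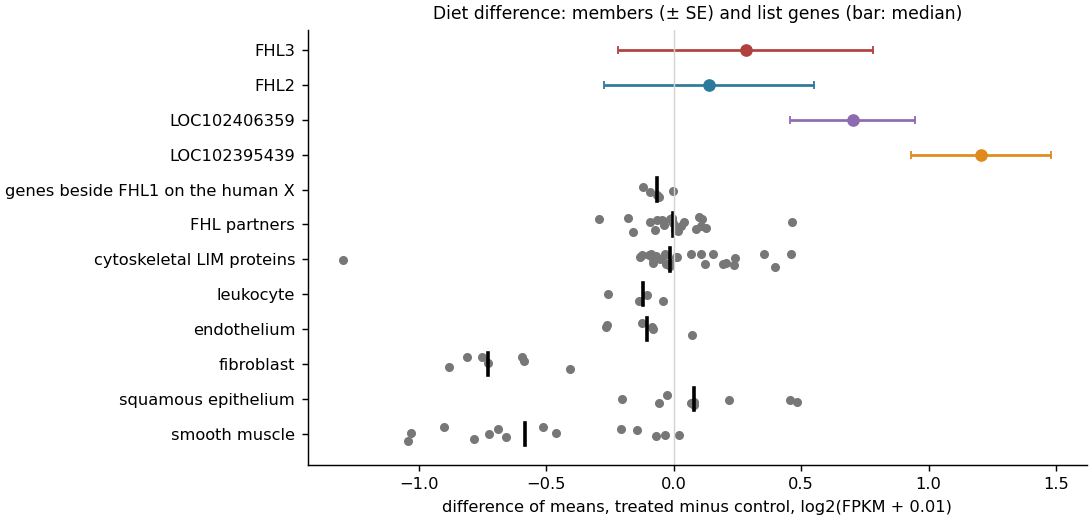
Difference of the group means, treated minus control, on the log2(FPKM + 0.01) scale (horizontal axis): the 4 members with their standard errors (coloured), and below them each tested gene of the 8 lists (grey) with the list median (bar). LOC102395439 (1.21) and LOC102406359 (0.70) lie to the right, and the medians of the smooth muscle (-0.58) and fibroblast (-0.73) lists to the left.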

How the data were processed

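Total RNA from the frozen ruminal wall of 6 control and 6 treated buffaloes was sequenced from stranded libraries. The authors trimmed reads (Trimmomatic 0.39), aligned them to UOA_WB_1 (STAR 2.5.2b) and counted them by strand at a minimum mapping quality (featureCounts 2.0.0). The deposited table gives FPKM, and the tool that computed them is not given in the sources used here. Of its 16 columns of values, 4 matched no sample label and were not used. Fragment counts, depths and gene lengths were recovered from the FPKM, whose values were whole multiples of 1 read (tolerance 0.01 read) in 22972 of 22972 genes above 0, and the recovered lengths were whole in 97.8% of genes.

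Genes with at least 42 reads at the median depth in at least 1 animal were fitted with limma 3.58.1 (R 4.3.3) on log2(FPKM + 0.01), a scale that understates changes of low genes, with Benjamini-Hochberg adjustment. Correlations used 100000 shuffles within groups (exact within 1 group), with numpy 2.4.6 and scipy 1.17.1. The limma p-values set a group difference against the spread between these animals. Permutation p-values concern either correlation within groups (shuffles) or a difference between genes within each animal (sign flips).

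The members and gene lists were chosen with earlier results of these data known. Named genes were the members, the nominal calls and the 3 most abundant tested genes of each list, DES and MYH11, the 5 genes most like each member, and neighbours of the X-linked members, of which 1 is not reported here. MYLPF, MYOT, XIRP2, MYBPC1, MYOD1, ACTB, FHL5, ACTG2, CNN1, LMOD1 and SMTN were named outside this rule, after their values were seen. Counting intervals cover counting error only. Alternatives were other pseudocounts, filters and scaling, a replicate block, a smooth muscle covariate, a rank-sum test and leaving out each animal, and, added after seeing the data, voom on the recovered reads and leaving out both replicate 6 animals.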

Additional observations from a re-analysis of the deposited data

Results flagged for a closer look

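Of 64 groups of 6 animals examined (the members, marker genes and scores), 1 held an animal set apart by Dixon's criterion, whereas chance alone sets apart about 1 in 20. It was KRT5 in the control group, at 451 FPKM in control replicate 6 and between 1453 and 1756 FPKM in the other controls. The gap was 0.768 of the group's range, above the 95% limit for 6 animals. The same animal had the lowest control value of FHL2 and of FHL3.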

How the results depend on the processing

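The log2 difference of LOC102395439 was 0.60 with a pseudocount of 1, which shrinks low genes by construction. The difference of FHL2 turned to -0.17 without control replicate 6, and that of FHL3 to -0.078 without it and to -0.043 with the smooth muscle covariate. Leaving out 1 animal at a time gave 1.08 to 1.33 for LOC102395439, 0.58 to 0.83 for LOC102406359, -0.17 to 0.47 for FHL2 and -0.078 to 0.64 for FHL3. Nominal calls over all genes, 156 in the design used, were 562 with no filter and 301 with a filter of 0.1 FPKM, both of which test more genes, 315 without both replicate 6 animals and 142 to 328 without 1 animal, the highest without treated replicate 6. Calls in the marker lists (1, DES) were 0 with the covariate, 5 with no filter, 3 with the 0.1 FPKM filter, 0 without both replicate 6 animals and 0 to 6 without 1 animal. Calls in the pathway lists (0) were 2 with the covariate (LIMCH1 and WTIP) and 0 to 3 without 1 animal. Same-numbered animals correlated at 0.229 on average (-0.0148 to 0.454) and 9 of 12 correlated best with their own number. This is a hint from the data and not the design, since the animal numbers in the sample titles differ within each such pair. With a replicate block the nominal calls were 320 and the pathway calls 1 (WTIP). The member differences kept their values, which was fixed in advance because each number occurs once in each group. The r of LOC102406359 and FHL2 became -0.074 under median-ratio scaling, that of LOC102395439 and FHL3 became -0.10 without both replicate 6 animals, and that of FHL2 and FHL3 was 0.94 (adjusted permutation p = 0.0179) after the smooth muscle score was removed. FHL2 exceeded LOC102406359 by 1.32 among the treated animals alone (exact p = 0.0625). FHL3 exceeded LOC102395439 by 0.66 without both replicate 6 animals, and by -0.11 among the treated. Except where the construction shows it, the cause was not tested. Of 247 values under other settings, 201 kept their direction and side of the threshold or moved by less than the spread between animals. The 201 include the member differences under the replicate block, which could not move. With 12 to 60 reads per animal, the counting error of LOC102395439 (5.63 reads) was part of its spread within groups (10.3 reads).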
